A study of Mus musculus with 12 samples.

Results

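The genes described here are the 7 coagulation factor genes F2, F5, F7, F9, F10, F11 and F12 and the 3 fibrinogen chain genes Fga, Fgb and Fgg, 10 of the 19012 gene symbols measured in 12 mouse liver samples. They were chosen by symbol from the known cascade, and each symbol is represented by its longest transcript. RNA sequencing on a SOLiD instrument was applied to 4 liver tumors of mice labelled E2F7/8 DKO (double knockout), 4 livers labelled E2F7/8 DKO and 4 livers labelled wt, called wild type here. E2f7 and E2f8 encode atypical members of the E2F family, which repress transcription of cell cycle genes. Strain, sex, age, treatment, and the Cre line or promoter behind the deletion are not given in the sources used here. The animal codes in the names of the data are shared by the DKO tumor and the DKO liver of the same replicate number, so these 8 libraries came from 4 animals, and the wild-type livers came from other animals.

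The liver makes most clotting factors of the blood, and hepatocytes secrete them as inactive precursors. After injury, factor VII, encoded by F7, binds tissue factor and activates factors IX and X. Factor X with its cofactor factor V then converts prothrombin, encoded by F2, to thrombin, and thrombin cuts fibrinogen so that it polymerises to fibrin. Factors XI and XII belong to the contact pathway, which feeds into the activation of factor IX. Prothrombin and factors VII, IX and X need vitamin K for their carboxylation, and fibrinogen is a classical acute-phase protein whose genes respond to interleukin 6.

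No gene of the 10 passed the test in any of the 3 comparisons. Of all genes tested, 1.90% passed for DKO tumor against wild-type liver, 0.00881% for DKO tumor against DKO liver and 0% for DKO liver against wild-type liver. F7 and F10 had lower RPKM (reads per kilobase of exon and per M reads, M for mega) in all 4 DKO tumors than in every DKO liver and every wild-type liver, with means at 57.0 and 65.8% of the DKO liver mean and at 72.3 and 68.1% of the wild-type mean. Neither passed the adjusted threshold, and 4.08% of all genes were lower in this way against DKO livers and 6.32% against wild-type livers. The fibrinogen genes were among the most abundant of all genes, varied up to 3.84 times within a group, and moved together from library to library. Beside them Anxa2, a gene of the fibrinolysis list, rose in the tumors relative to wild type.

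Depth ranged from 7.985 to 15.956 M reads, and the 10 genes had between 572 and 190920 reads per library, the fewest for F11 and the most for Fgb. E2f7 had 0.0365 to 0.259 RPKM in DKO tumors, 0.211 to 0.400 in DKO livers and 0.103 to 0.200 in wild-type livers. E2f8 had 1.66 to 12.2 RPKM in DKO tumors, 2.80 to 20.8 in DKO livers and 1.66 to 4.30 in wild-type livers, so the transcripts were not lower under the DKO label. Which exons were deleted is not known here and RPKM counts all exons, so the genotype could not be checked with these values, and groups are named by their labels. All DKO tumors carry the tag L03 in the names of the data and all DKO livers the tag L02, read here as sequencing lanes, while wild-type livers 1 and 2 carry L02 and wild-type livers 3 and 4 carry L03. Alb, the albumin gene and the most abundant gene, ranged from 57617 to 109387 RPKM in DKO tumors, from 20689 to 98562 in DKO livers and from 33085 to 53881 in wild-type livers. RPKM is relative to all reads of a library, those of Alb included. Size factors from the median of ratios were lowest in DKO tumor 1 (0.762) and highest in DKO liver 3 (1.28), and values scaled by them are given where they change a statement.

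The fibrinogen genes lie side by side on mm9 chromosome 3, Fgg from 82811817 to 82818970 and Fga from 82830075 to 82836191 on the plus strand, and Fgb from 82846226 to 82853711 on the minus strand. The gaps are 11.105 and 10.035 kb and hold no other gene of the files. F7 (13026045 to 13035808) and F10 (13037307 to 13056215) are neighbours on chromosome 8, both on the plus strand and 1.499 kb apart. F11 lies elsewhere on chromosome 8, from 46326523 to 46347384. F2 is on chromosome 2 (91465476 to 91476570), F5 on chromosome 1 (166081989 to 166150404), F9 on chromosome X (57252640 to 57283934) and F12 on chromosome 13 (55519350 to 55528140). The files do not state whether positions count from 0 or from 1.

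The sequences before the start sites of these neighbouring genes are shown because the genes in each cluster moved together across the libraries. They are the 250 bases upstream of each RefSeq start on GRCm38.p6, 5′ to 3′ on the gene's own strand, at chr3:83025903-83026152 (plus) for Fga, chr3:83049864-83050113 (minus) for Fgb, chr3:83007474-83007723 (plus) for Fgg, chr8:13025784-13026033 (plus) for F7 and chr8:13037058-13037307 (plus) for F10. Capitals mark matches, on either strand, to GTTAAT (a half-site of HNF1), CTGGGA (the core of interleukin 6 response elements), CAAAGG (a half-site of HNF4), TTCCCGC and TTGGCGC (both E2F sites).
Fga: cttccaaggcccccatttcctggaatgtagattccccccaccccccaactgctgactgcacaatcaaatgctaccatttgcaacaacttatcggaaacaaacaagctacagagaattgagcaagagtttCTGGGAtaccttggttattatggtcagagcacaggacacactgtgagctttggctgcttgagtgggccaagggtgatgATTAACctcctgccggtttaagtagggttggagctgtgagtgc
Fgb: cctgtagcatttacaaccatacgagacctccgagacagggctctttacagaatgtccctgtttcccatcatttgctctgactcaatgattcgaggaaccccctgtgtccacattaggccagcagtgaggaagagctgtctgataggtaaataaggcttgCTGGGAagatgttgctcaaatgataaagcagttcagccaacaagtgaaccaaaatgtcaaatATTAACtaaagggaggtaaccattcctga
Fgg: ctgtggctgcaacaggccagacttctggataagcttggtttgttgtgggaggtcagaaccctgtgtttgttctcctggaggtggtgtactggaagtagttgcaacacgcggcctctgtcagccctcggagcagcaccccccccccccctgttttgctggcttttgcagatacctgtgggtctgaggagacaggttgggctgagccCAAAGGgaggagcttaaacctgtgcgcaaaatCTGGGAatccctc
F7: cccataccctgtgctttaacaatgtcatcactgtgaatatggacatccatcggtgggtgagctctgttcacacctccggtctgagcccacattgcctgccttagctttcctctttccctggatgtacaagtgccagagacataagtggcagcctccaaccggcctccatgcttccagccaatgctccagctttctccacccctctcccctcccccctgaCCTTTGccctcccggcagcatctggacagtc
F10: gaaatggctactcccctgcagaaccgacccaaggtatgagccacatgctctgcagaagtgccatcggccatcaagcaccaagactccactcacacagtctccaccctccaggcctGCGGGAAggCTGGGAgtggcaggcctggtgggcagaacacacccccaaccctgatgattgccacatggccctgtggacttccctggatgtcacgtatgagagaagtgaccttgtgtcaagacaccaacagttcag
The motifs were chosen after the sequences were seen. CTGGGA was found in all 3 fibrinogen promoters and in those of F9 and F10, and 27.0% of 32851 mouse promoters of this length hold it. GTTAAT was found on the reverse strand in Fga, 43 bases before the start, and in Fgb, 29 bases before it, against 6.43% of all promoters. CAAAGG was found in F7, F9, F11, F12 and Fgg (17.6% of all promoters). TTCCCGC was found in F10 only among the 10 (3.82% of all), and TTGGCGC in none (1.97% of all). No 2 of these motifs overlap in the sequences shown. Each match is a description of letters and not evidence of a bound site.

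**Figure D1:**
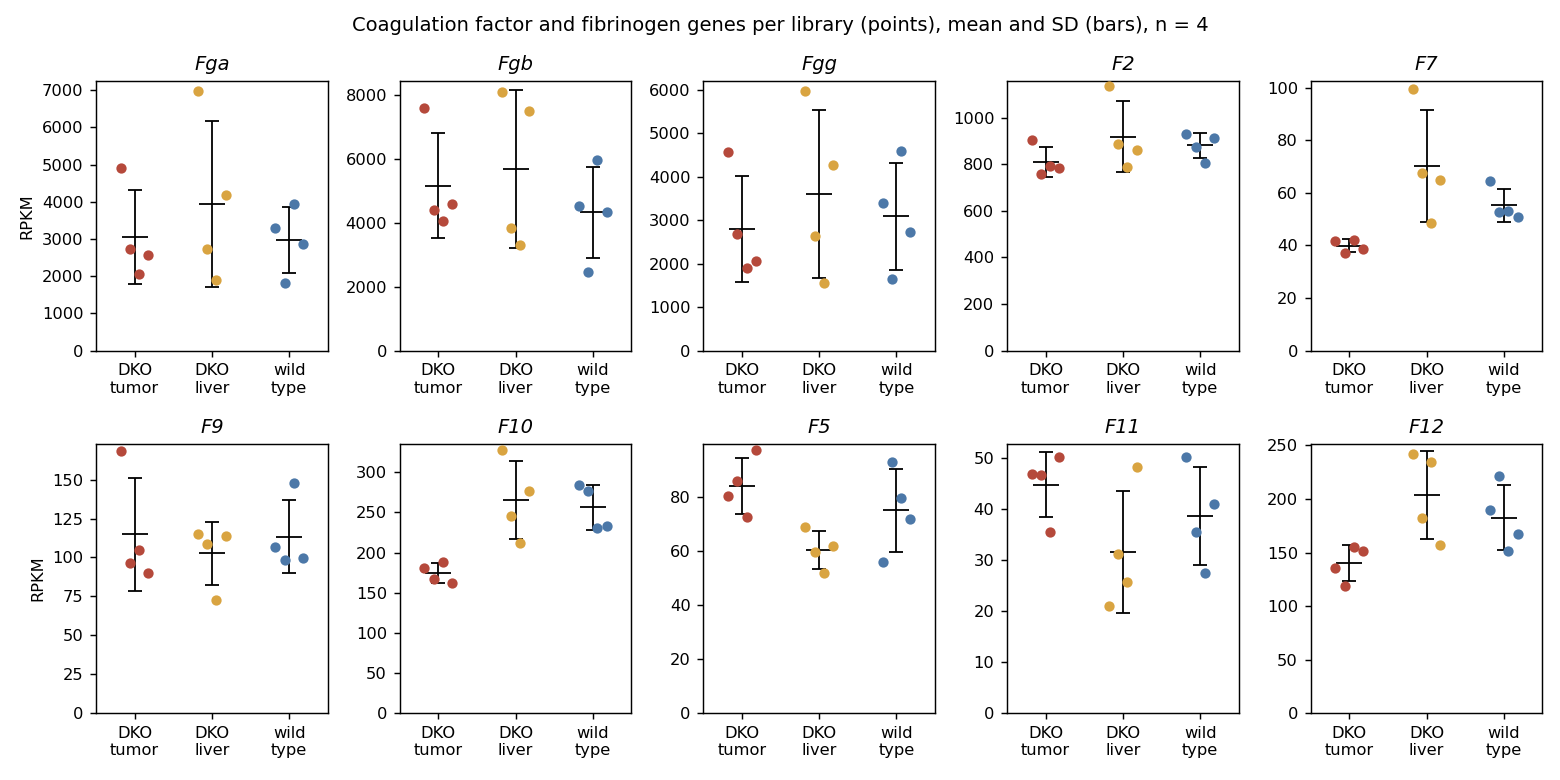
RPKM of each of the 10 genes (vertical axes from 0) in 4 DKO tumors, 4 DKO livers and 4 wild-type livers, with points for libraries and bars for the mean and SD. In RPKM as deposited, the tumor points of F7 and F10 lie below all points of both liver groups, while the fibrinogen genes spread widely within every group.

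Fga, Fgb and Fgg encode the Aα, Bβ and γ chains, which are needed in equal numbers for the secreted molecule. Fgb had 7607, 4403, 4064 and 4603 RPKM in DKO tumors 1 to 4, 8109, 3841, 3313 and 7505 in DKO livers 1 to 4, and 4517, 2478, 5966 and 4347 in wild-type livers 1 to 4. Fga had 4898, 2723, 2049.5 and 2568 RPKM in DKO tumors, 6982, 2727, 1896 and 4191 in DKO livers, and 3288, 1818, 3935 and 2878 in wild-type livers. Fgg had 4559.5, 2684, 1899 and 2066 RPKM in DKO tumors, 5974, 2646, 1556 and 4256 in DKO livers, and 3386, 1649, 4586 and 2717 in wild-type livers. DKO tumor 1, DKO livers 1 and 4 and wild-type liver 3 were the high libraries for all 3 genes within their groups, and the groups overlapped throughout. By mean over the 12 libraries Fgb ranked 7th, Fga 15th and Fgg 17th of all gene symbols.

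The highest library exceeded the lowest of its own group by 2.39 times in DKO tumors, 3.68 times in DKO livers and 2.16 times in wild-type livers for Fga. The ratio for Fgg was 2.401 in DKO tumors, 3.84 in DKO livers and 2.78 in wild-type livers. The spread was therefore wider than any difference between group means, which were 2802 ± 1219 RPKM in DKO tumors, 3608 ± 1928 in DKO livers and 3084 ± 1230.4 in wild-type livers for Fgg (SD, n = 4 each). With this spread, the fitted 95% interval for Fgg in DKO tumor against wild-type liver reached from −1.08 to 0.81 on the log2 scale, so these libraries leave room for a sizeable difference either way.

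Within this wide spread Fga and Fgg kept close proportions, and Fgb varied more against Fga. The ratio of Fgg to Fga lay between 0.804 and 1.17 in all 12 libraries, and that of Fgb to Fga between 1.16 and 1.98. Pearson's r of log2(RPKM + 1) over the 12 libraries was 0.97 between Fga and Fgg, 0.93 between Fga and Fgb and 0.91 between Fgb and Fgg. For each of the 3 genes the other two held ranks 1 and 2 among the other 11350 genes tested. The libraries share groups, animals and the scaling by total reads, so these values describe likeness only. After the group means were subtracted, the r values were 0.98, 0.95 and 0.96. The genes outside the 10 with the highest r were Itih4 (0.89), Rps29 (0.85) and Itih3 (0.84) for Fga, Kng2 (0.88), 1810022C23Rik (0.88) and Rps29 (0.85) for Fgb and Itih4 (0.86) and Itih3 (0.86) for Fgg. Itih3 and Itih4 encode heavy chains of the inter-alpha-trypsin inhibitor family.

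Fgb made up a larger share relative to Fga in tumors than in wild-type livers. The ratio of Fgb to Fga was 1.55 to 1.98 in DKO tumors, 1.16 to 1.79 in DKO livers and 1.36 to 1.52 in wild-type livers. The tumor values did not overlap the wild-type values, as was so for 1.28% of the 11350 other genes when divided by Fga, but they overlapped the DKO liver values. The ratio was chosen after its values were seen and no test was made on it.

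**Figure D2:**
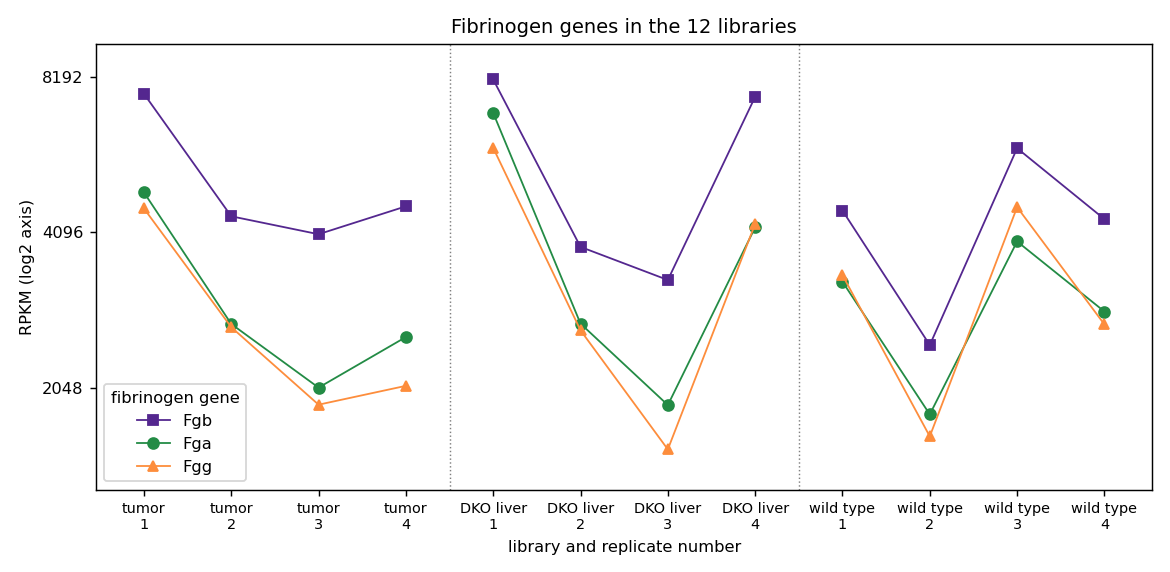
RPKM of Fgb, Fga and Fgg on a log2 axis in the 12 libraries, by group and replicate number. The 3 lines rise and fall together within each group, with DKO tumor 1, DKO liver 1 and wild-type liver 3 the highest points of their groups. The distance between Fgb and Fga varies, and is smallest in DKO liver 1.

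F7 encodes the initiating protease of the cascade and F10 the protease at its common pathway. F7 had 41.8, 37.2, 42.0 and 38.8 RPKM in DKO tumors 1 to 4, 99.4, 67.6, 48.7 and 64.7 in DKO livers 1 to 4, and 64.6, 52.6, 53.0 and 50.8 in wild-type livers 1 to 4. F10 had 181, 167, 188 and 162 RPKM in DKO tumors, 327, 245, 212 and 277 in DKO livers, and 284, 276, 231 and 233 in wild-type livers. For both genes every tumor lay below every liver of either genotype, DKO liver 1 was the highest library, and the 2 liver groups overlapped. In bulk tissue, fewer cells of a type and less RNA per cell cannot be told apart.

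Mean F7 was 39.9 ± 2.36 RPKM in DKO tumors, 70.1 ± 21.2 in DKO livers and 55.2 ± 6.28 in wild-type livers (SD, n = 4 each). The log2 difference was −0.75 for DKO tumor against DKO liver (SE 0.20, 95% interval −1.18 to −0.33, limma adjusted p = 0.106) and −0.45 for DKO tumor against wild-type liver (SE 0.20, −0.88 to −0.03, adjusted p = 0.233). Mean F10 was 174 ± 12.1 RPKM in DKO tumors, 265 ± 48.8 in DKO livers and 256 ± 27.8 in wild-type livers. Its log2 difference was −0.59 for DKO tumor against DKO liver (SE 0.18, −0.98 to −0.19, limma adjusted p = 0.156) and −0.55 for DKO tumor against wild-type liver (SE 0.18, −0.94 to −0.15, adjusted p = 0.126). These intervals exclude 0 one gene at a time, but none of the 4 differences passed after adjustment over 11351 genes.

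The separation of the groups depended on the scaling. Divided by the size factors, F7 was at 54.8, 39.4, 37.8 and 35.8 in DKO tumors, 91.9, 67.9, 38.2 and 70.7 in DKO livers, and 68.1, 52.2, 50.6 and 52.9 in wild-type livers. DKO tumor 1 then lay above wild-type livers 2, 3 and 4, and DKO liver 3 lay among the tumors. For F10, DKO tumor 1 (237) then lay above wild-type liver 3 (220.4), and DKO liver 3 (167) lay among the tumors. After scaling, 0 of the 10 genes were free of overlap in any comparison, whereas 16.1% of all genes were between DKO tumors and wild-type livers, 11.5% between DKO tumors and DKO livers and 9.48% between the livers of both genotypes. The scaled log2 difference of DKO tumor against DKO liver was −0.62 for F7 (limma adjusted p = 0.170) and −0.45 for F10 (adjusted p = 0.267), while this scaling moved the median over all genes by over 0.1, to 0.01, against −0.09 as deposited.

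A ratio of 2 genes within a library does not depend on its scaling. F2, which is abundant, was chosen as the denominator after its values were seen. In RPKM as deposited its highest library was 1.19 times the lowest in DKO tumors, 1.44 in DKO livers and 1.15 in wild-type livers. After size factor scaling it spanned 712 to 1187 in DKO tumors. Over the 12 libraries r of F2 was 0.83 with F7 and 0.74 with F10. The ratio of F7 to F2 was 0.0462 to 0.0531 in DKO tumors, 0.0617 to 0.0874 in DKO livers and 0.0556 to 0.0695 in wild-type livers. The ratio of F10 to F2 was 0.200 to 0.238 in DKO tumors, 0.269 to 0.322 in DKO livers and 0.255 to 0.316 in wild-type livers. Neither ratio overlapped between tumors and either liver group. Of the other genes tested, 3.32% had a ratio to F2 that was lower in all tumors than in every wild-type liver, and 1.74% one that was lower in all tumors than in every DKO liver. No test was made on these ratios, and as F7, F10 and F2 were all picked after their values were seen, the ratios only describe these libraries on a scale free of library totals.

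**Figure D3:**
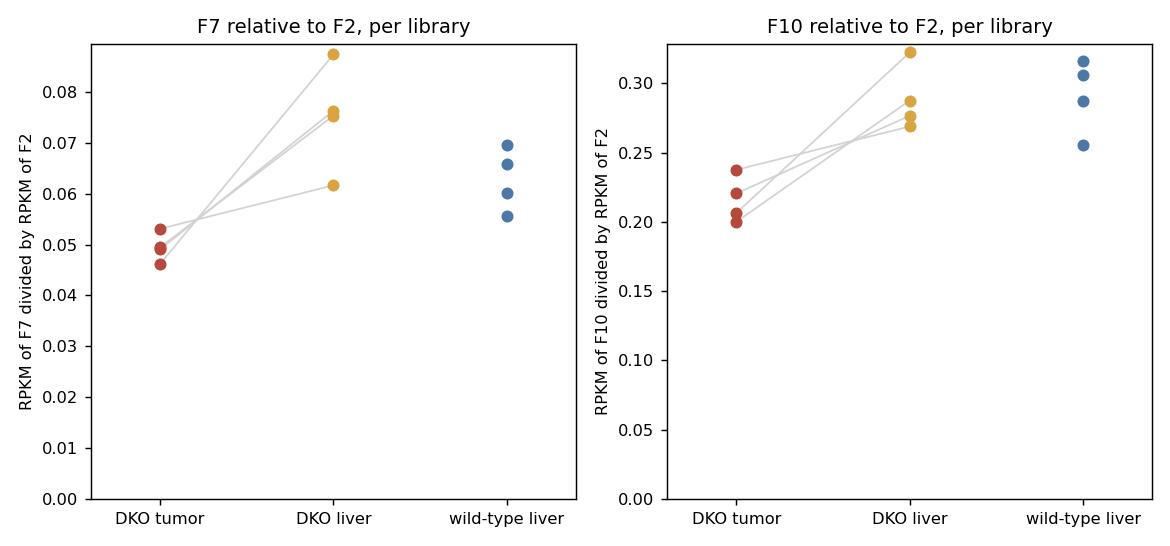
RPKM of F7 (left) and F10 (right) divided by RPKM of F2 in each library of the 3 groups, with lines joining the tumor and liver that share an animal code. In all 4 animals the tumor point lies below the liver point, and all tumor points lie below all wild-type points.

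F7 and F10 also resembled each other across libraries, with r = 0.92 over the 12 libraries, each the 4th most alike gene of the other. After the group means were subtracted, r was 0.87. The genes outside the 10 most like F7 were Trfr2 (0.94), Syp (0.92) and Lcat (0.92), and those most like F10 were 0610012D14Rik (0.94), Trfr2 (0.92) and Dlgap1 (0.92). With group means subtracted, these values were 0.83, 0.76 and 0.83 for F7 and 0.77, 0.78 and 0.72 for F10. Trfr2 encodes transferrin receptor 2 and Lcat the enzyme that esterifies plasma cholesterol. Proz, encoding the vitamin K-dependent protein Z, is the next gene after F10, 4.692 kb downstream. It had 97.9, 108, 132 and 126 RPKM in DKO tumors, 165, 168, 137 and 176 in DKO livers, and 152, 181, 157 and 157 in wild-type livers. In RPKM as deposited its tumors too lay below all livers. This was so for 4.08% of the genes tested against DKO livers and 6.32% against wild-type livers. After size factor scaling, Proz overlapped between DKO tumors and DKO livers. Its log2 difference was −0.48 in both comparisons (limma adjusted p = 0.201 against DKO liver and 0.143 against wild-type liver). With quantile normalization it was −0.22 against DKO liver and −0.14 against wild-type liver. Proc, the gene of the anticoagulant protein C on another chromosome, averaged 188 ± 23.4 RPKM in DKO tumors, 283 ± 51.5 in DKO livers and 289 ± 43.2 in wild-type livers. In RPKM as deposited its tumors did not overlap either liver group, but DKO tumor 3 (212.999) all but met DKO liver 4 (213.097). The log2 difference of Proc was −0.58 against DKO liver (limma adjusted p = 0.198) and −0.61 against wild-type liver (adjusted p = 0.123). With quantile normalization these were −0.29 and −0.23. Proz and Proc were picked out after their values were seen. The vitamin K-dependent genes did not all share this pattern, as F2, F9 and Pros1 (protein S) overlapped between all groups.

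F2 had 904, 758, 791 and 784 RPKM in DKO tumors, 1137, 886, 790.2 and 859 in DKO livers, and 928, 875, 805 and 914 in wild-type livers. These ranges overlapped and F2 had the narrowest spread of the 10 genes in wild-type livers, at 1.15 times from the lowest to the highest library. Its log2 difference was −0.12 for DKO tumor against wild-type liver (95% interval −0.54 to 0.30) and −0.17 for DKO tumor against DKO liver (−0.59 to 0.25). Its most alike genes were Serpinc1 (r = 0.92), which encodes the thrombin inhibitor antithrombin, Plg (0.88), which encodes plasminogen, and 1300017J02Rik (0.86).

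F9, the gene deficient in hemophilia B, had 168, 96.3, 105 and 90.0 RPKM in DKO tumors, 115, 109, 72.5 and 114 in DKO livers, and 106, 98.6, 148 and 99.9 in wild-type livers. DKO tumor 1 and wild-type liver 3 were high in otherwise narrow groups, and all groups overlapped. The log2 difference between DKO tumor and wild-type liver was −0.0051 (95% interval −0.52 to 0.51). Its most alike genes were Cpb2 (r = 0.90), which encodes a fibrinolysis inhibitor, and Hc (0.78), which encodes complement C5.

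F5 encodes the cofactor of activated factor X. It had 80.4, 86.0, 72.6 and 97.5 RPKM in DKO tumors, 68.9, 59.8, 51.9 and 61.8 in DKO livers, and 55.9, 93.0, 79.6 and 71.9 in wild-type livers. All tumors lay above all DKO livers, which was so for 2.12% of the genes tested, and overlapped the wild-type livers. The log2 difference of DKO tumor against DKO liver was 0.47 (SE 0.19, 95% interval 0.07 to 0.86, limma adjusted p = 0.238). Relative to F2 it was also higher in all tumors than in all DKO livers, as were 2.08% of the other genes. After size factor scaling the groups overlapped, with DKO tumor 3 at 65.3 and DKO liver 4 at 67.5. The most alike genes of F5 were Reps2 (r = 0.84), Eea1 (0.84) and Slc30a4 (0.82).

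The contact pathway genes F11 and F12 had log2 differences of opposite sign for DKO tumor against DKO liver. F11 had 46.9, 46.6, 35.5 and 50.2 RPKM in DKO tumors, 21.1, 31.2, 25.7 and 48.3 in DKO livers, and 50.3, 35.5, 27.6 and 41.0 in wild-type livers. F12 had 135, 119, 156 and 151 RPKM in DKO tumors, 242, 182, 235 and 157 in DKO livers, and 189.6, 221, 151 and 168 in wild-type livers. DKO liver 4 was the highest of its group for F11 and the lowest for F12. F11 overlapped between all groups, and F12 was separated only between DKO tumors and DKO livers, where 156 in DKO tumor 3 stood next to 157 in DKO liver 4. Of the genes tested, 4.08% were lower in this way. Relative to F2 these groups overlapped for F12. They also overlapped after size factor scaling, with DKO tumor 1 at 177.8 and DKO liver 4 at 171.7.

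The log2 difference between DKO tumor and DKO liver was 0.55 for F11 (SE 0.25, 95% interval 0.01 to 1.08, limma adjusted p = 0.295) and −0.52 for F12 (SE 0.20, −0.95 to −0.09, adjusted p = 0.228). Across the 12 libraries r between F11 and F12 was −0.65, and −0.45 after the group means were subtracted. The genes most like F11 were 2310014L17Rik (0.87), Ap3s1 (0.84) and Alb (0.82), the gene that takes the largest share of the reads. Those most like F12 were Ece1 (0.98), Dohh (0.97) and Mrpl4 (0.96).

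Ordered by mean RPKM, the 3 fibrinogen genes came first in every group, followed by F2, F10, F12 and F9. Fibrinogen, F2 and F10 were separated from each other by gaps without overlapping ranges in all 3 groups, whereas Fga and Fgg overlapped everywhere. The last places differed between the groups, with F5, F11 and F7 in DKO tumors, F7, F5 and F11 in DKO livers, and F5, F7 and F11 in wild-type livers. F5 and F7 overlapped in both liver groups, and in DKO tumors the lowest F5 value (72.6) lay above the highest F7 value (42.0). F11, the least abundant by mean over the 12 libraries, ranked 1354th of all gene symbols, and F7 ranked 976th.

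Over the 10 genes, 0 passed between DKO tumors and wild-type livers, where 1.90% of the genes tested passed (216 of 11351, 140 higher and 76 lower in tumors, limma adjusted p under 0.05). At an unadjusted p under 0.05 there were 2 of the 10, F7 and F10, and 19.2% of all genes. The median log2 difference of the 10 was −0.06, against −0.02 over all genes tested. The linear model with voom weights on reads recovered from the RPKM also called 0 of the 10.

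Between DKO tumors and DKO livers, 0 of the 10 passed, where 0.00881% of the genes tested passed (1 gene), and voom called 0 of the 10 as well. The unadjusted p was under 0.05 for 5 of the 10 (F5, F7, F10, F11 and F12), and for 16.1% of all genes. The median of the 10 was −0.22, against −0.09 over all genes. With the replicate block, which compares tumor and liver within each animal, 71 genes passed but again 0 of the 10, and the limma adjusted p was 0.172 for F7 and 0.268 for F10. All tumors of this comparison carry one lane tag and all livers the other, so lane and tissue cannot be told apart.

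Between DKO livers and wild-type livers, 0 of the 10 passed, where 0% of the genes tested passed, and voom also called 0 genes. The unadjusted p was under 0.05 for 0 of the 10 and for 12.4% of all genes (1408). No gene of the 10 was without overlap between these groups, as 7.59% of all genes were. The median of the 10 was 0.10, against 0.08 over all genes. The widest fitted difference was 0.35 for Fgb (95% interval −0.45 to 1.15, limma adjusted p = 0.701), and for F7 it was 0.30 (−0.13 to 0.72, adjusted p = 0.528). These intervals do not show that the livers were alike.

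**Figure D4:**
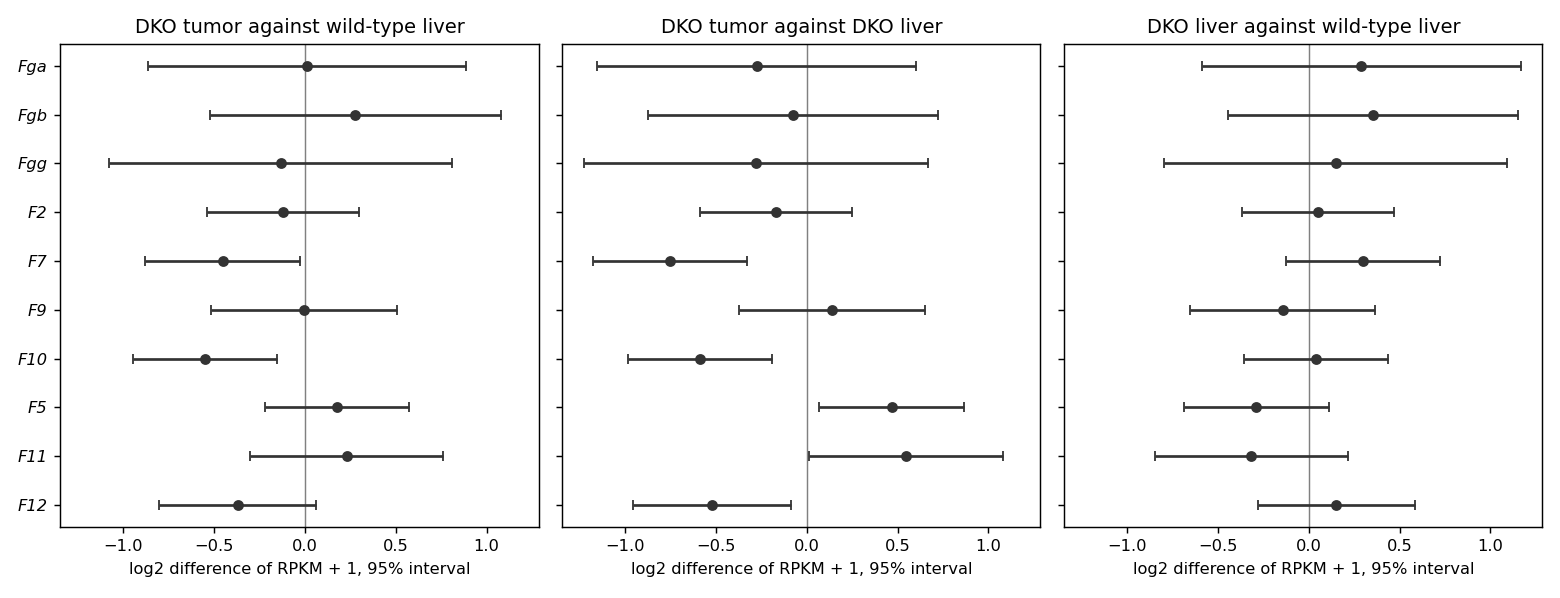
Log2 difference of RPKM + 1 for each of the 10 genes in 3 comparisons, with the fitted difference as a point and its 95% interval as a bar. The intervals of F7 and F10 lie below 0 in both comparisons of DKO tumors. Against DKO liver that of F12 also lies below 0, and those of F5 and F11 lie above 0. Every interval of DKO liver against wild-type liver spans 0.

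Within the lane tag L03, which holds the 4 DKO tumors and 2 of the wild-type livers, the log2 difference was −0.37 for F7 (SE 0.22, limma adjusted p = 0.637) and −0.41 for F10 (SE 0.26, adjusted p = 0.658). F12 was at −0.19, F11 at 0.39 and F5 at 0.14. Within the lane tag L02, which holds the 4 DKO livers and the other 2 wild-type livers, F7 was at 0.22, F10 at −0.10, F11 at −0.48 and Fgb at 0.66, with 0 of the 10 past the threshold in either lane.

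Other genes of hemostasis were followed as lists, and all p-values are from the fit over all genes. In the list of fibrinolysis genes, Anxa2 rose in DKO tumors relative to wild type. Anxa2, which encodes annexin A2, a receptor for plasminogen and its tissue activator, had 63.9, 67.4, 38.5 and 139 RPKM in DKO tumors, 28.2, 17.6, 37.6 and 17.0 in DKO livers, and 16.0, 18.9, 24.6 and 17.998 in wild-type livers. All tumors lay above all livers of both genotypes. The log2 difference of Anxa2 was 1.81 for DKO tumor against wild-type liver (SE 0.34, limma adjusted p = 0.0261) and 1.51 for DKO tumor against DKO liver (adjusted p = 0.080). Anxa2 lost its call when DKO tumor 1 (limma adjusted p = 0.060) or 2 (0.073), or wild-type liver 1 (0.094), 2 (0.062) or 4 (0.096), was left out. Within the lane tag L03, its log2 difference was 1.68 (limma adjusted p = 0.294), and with the lane tag as a covariate the adjusted p was 0.234.

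The most abundant genes of the fibrinolysis list were Hrg (histidine-rich glycoprotein), at 1193 ± 287 RPKM in DKO tumors, 1106 ± 335 in DKO livers and 1082 ± 141 in wild-type livers, and Plg, at 913 ± 152 RPKM in DKO tumors, 1163 ± 349.6 in DKO livers and 1119.7 ± 60.4 in wild-type livers.

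In the other lists 0 genes passed in any comparison by limma. The other cascade and fibrin-stabilizing factors had 0 of 13, with 2 at an unadjusted p under 0.05 between DKO tumors and wild-type livers, where 19.2% of all genes were. The most abundant, Kng1 (kininogen), averaged 1143 ± 231 RPKM in DKO tumors, 900.4 ± 166 in DKO livers and 897 ± 200.2 in wild-type livers. Fgl1, a fibrinogen-like secreted protein, averaged 353 ± 245 RPKM in DKO tumors, 773 ± 719.5 in DKO livers and 586 ± 718 in wild-type livers, with an SD near or above the mean in the livers.

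The anticoagulants had 0 of 14, with 4 at an unadjusted p under 0.05 for DKO tumor against wild-type liver (19.2% of all genes) and 5 against DKO liver (16.1% of all genes), and their median log2 differences were −0.22 and −0.42, beside −0.02 and −0.09 over all genes. Serpinc1 averaged 913 ± 103 RPKM in DKO tumors, 1225 ± 325 in DKO livers and 1253 ± 205 in wild-type livers. Serping1, encoding the C1 inhibitor, averaged 473 ± 93.7 RPKM in DKO tumors, 849.6 ± 169 in DKO livers and 703 ± 148 in wild-type livers. Serping1 had a log2 difference of −0.84 between DKO tumor and DKO liver (limma adjusted p = 0.128). In RPKM as deposited all its tumors lay below all DKO livers, as was so for 4.08% of the genes tested. After size factor scaling, Serping1 overlapped between DKO tumors and DKO livers, with DKO tumor 1 above DKO liver 3.

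Vitamin K recycling and export from the endoplasmic reticulum had 0 of 5. Vkorc1, the warfarin target, averaged 159.5 ± 27.6 RPKM in DKO tumors, 196 ± 71.9 in DKO livers and 234 ± 49.4 in wild-type livers. Mcfd2, which helps factor V leave the endoplasmic reticulum, averaged 161 ± 20.6 RPKM in DKO tumors, 169.8 ± 11.98 in DKO livers and 148 ± 6.21 in wild-type livers. Of the 4 thrombin and protease-activated receptor genes only F2r and F2rl1 passed the filter on low values, and 0 of these 2 passed the test. F2r averaged 7.98 ± 4.34 RPKM in DKO tumors, 7.93 ± 7.25 in DKO livers and 4.26 ± 1.52 in wild-type livers. F2rl1 averaged under 1 RPKM in each group.

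The liver transcription factors and interleukin 6 signalling genes had 0 of 16, with 6 at an unadjusted p under 0.05 for DKO tumor against wild-type liver (19.2% of all genes) and 2 against DKO liver (16.1% of all genes). Hnf4a, a nuclear receptor that activates many clotting factor genes, averaged 168 ± 31.8 RPKM in DKO tumors, 175 ± 23.5 in DKO livers and 152 ± 19.5 in wild-type livers. Cebpa, another activator of hepatocyte genes, was at 40.7 to 68.9 RPKM in DKO tumors, 72.2 to 127 in DKO livers and 83.6 to 135 in wild-type livers. In RPKM as deposited all tumors of Cebpa thus lay below all livers. Of the genes tested, 4.08% were lower in this way against DKO livers and 6.32% against wild-type livers. The log2 difference of Cebpa was −0.91 for DKO tumor against wild-type liver (limma adjusted p = 0.064) and −0.74 for DKO tumor against DKO liver (adjusted p = 0.160).

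Marker genes of liver cell types were summed beside these values, and 0 of each list passed in any comparison by limma. The summed RPKM of 8 hepatocyte markers, albumin among them, was 98650 to 169595 in DKO tumors, 70415 to 147358 in DKO livers and 71444 to 94075 in wild-type livers. Alb alone was at 57617 to 109387 RPKM in DKO tumors, so the sum mainly follows 1 gene there. For DKO tumor against wild-type liver 5 of the 8 had a positive log2 difference and 3 a negative one. Against DKO liver 6 were positive and 2 negative. The sum of 8 macrophage and Kupffer cell markers was 38.2 to 234 RPKM in DKO tumors, 189 to 519 in DKO livers and 96.4 to 278 in wild-type livers. All 8 had a negative log2 difference for DKO tumor against DKO liver, 5 of them at an unadjusted p under 0.05 (16.1% of all genes). For DKO liver against wild-type liver all 8 were positive, 0 of them at an unadjusted p under 0.05 (12.4% of all genes). The sum of 8 stellate cell and fibroblast markers was 28.1 to 98.5 RPKM in DKO tumors, 57.6 to 149.9 in DKO livers and 31.3 to 70.8 in wild-type livers. All 8 were negative for DKO tumor against DKO liver, 3 of them at an unadjusted p under 0.05, and all 8 were positive between the livers of both genotypes, 5 of them at an unadjusted p under 0.05.

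The sum of 8 endothelial markers was 28.4 to 65.6 RPKM in DKO tumors, 30.9 to 60.8 in DKO livers and 20.3 to 34.6 in wild-type livers. Megakaryocyte and platelet markers (6 of 8 matched) summed to 3.85 to 6.90 RPKM in DKO tumors, 4.597 to 30.1 in DKO livers and 2.46 to 3.61 in wild-type livers. Cholangiocyte markers (5 of 6 matched) summed to 15.3 to 111 RPKM in DKO tumors, 26.9 to 163 in DKO livers and 24.7 to 38.5 in wild-type livers. The sum of 6 lymphocyte markers was at most 8.16 RPKM in DKO tumors, 13.997 in DKO livers and 10.1 in wild-type livers. The sum of 5 red blood cell markers was 63.8 to 237.7 RPKM in DKO tumors, 85.3 to 145 in DKO livers and 79.9 to 132 in wild-type livers. No marker of these lists was at 0 in all libraries of a group. Their part in the values of the clotting genes was not tested.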

How the data were processed

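Each of 12 libraries had 1 deposited table of RPKM for 21247 RefSeq transcripts with mm9 coordinates. The submitters' processing notes name BWA and mm9, and the counting tool and filters are not given in the sources used here. Per the labels, polyadenylated RNA was sequenced. RPKM times exon length gave whole reads for 100% of values below 2000 reads (tolerance 0.05 of a read), and depth was taken from these. Without molecular identifiers, depth measures counting error alone. On these reads voom called 196 genes for DKO tumor against wild-type liver, 1 for DKO tumor against DKO liver and 0 between the livers of both genotypes.

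The longest transcript per symbol was kept (1520 symbols had several). The test covered 11351 genes that reached 0.5 RPKM in 4 or more libraries, the 10 genes described among them. From the deposited RPKM, log2(RPKM + 1) was fitted with limma 3.58.1 in R 4.3.3 (1 mean per group, trend, robust shrinkage), two-sided, with Benjamini-Hochberg adjustment over all genes at 0.05. The offset of 1 understates changes of genes with low values. The intervals are from the same fit, for 1 gene at a time. The fit was tested on simulated data. Python 3.11.15 read the tables.

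The replicate numbers pair DKO tumor and DKO liver by the animal codes. Correlations of their deviations were 0.12, 0.35, 0.37 and 0.00 for numbers 1 to 4. Tumors and DKO livers of unlike numbers had −0.25 to 0.15. DKO liver 4 and wild-type liver 3, from different animals, had 0.36, so these correlations alone do not identify pairs. Wild-type numbers are not paired with those of DKO tumors or DKO livers.

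Of each further list, genes that passed are named, or else the 2 with the highest mean. Beside each gene, up to 3 genes outside the 10 with the highest Pearson r are named. Some items that these rules name are not reported here. The 10 genes and the lists were chosen with earlier results of these data known. Alternatives changed the scaling (median of ratios, quantile), the offset (0.1), the filter (none), the transcript (shortest), the weights (voom), the libraries fitted (8 per comparison, or each left out) and the covariates (lane tag, replicate block). Fits within 1 lane were added after seeing the data. Nothing says that libraries of a group were separate litters or days, and p-values measure the spread between these samples.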

Additional observations from a re-analysis of the deposited data

Results flagged for a closer look

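Of 30 sets of 4 libraries (10 genes in 3 groups), 4 had a library far from the other three by Dixon's criterion, and chance flags about 1 in 20 such sets. Fgb was at 7607 RPKM in DKO tumor 1, while the other tumors had 4064 to 4603. F9 was at 72.5 RPKM in DKO liver 3, while the other DKO livers had 109 to 115. F9 was at 148 RPKM in wild-type liver 3, while the others had 98.6 to 106. F7 was at 64.6 RPKM in wild-type liver 1, while the others had 50.8 to 53.0.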

How the results depend on the processing

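None of the 10 genes passed in any of 65 alternative fits, and the lowest limma adjusted p among them was 0.073. Of 30 log2 differences, 15 kept their sign in all fits. F7 stayed between −0.49 and −0.28 for DKO tumor against wild-type liver and between −0.91 and −0.57 for DKO tumor against DKO liver, and F10 between −0.60 and −0.16 and between −0.69 and −0.30. The other 15 changed sign somewhere, and the cause was not tested. For DKO tumor against wild-type liver these were F2 at 0.14, F9 at 0.29 and Fgg at 0.23 with quantile normalization, F9 at 0.033 with median-of-ratios scaling, and Fga at −0.22 and Fgb at −0.026 both with the lane covariate and within L03. Between DKO tumor and DKO liver they were F9 at −0.11 with the lane covariate, Fga at 0.011 and Fgb at 0.056 with quantile normalization, and Fgb at 0.058 with median-of-ratios scaling. For DKO liver against wild-type liver they were F2 at −0.048 and F10 at −0.057 with median-of-ratios scaling, and F10 at −0.096 and F12 at −0.029 both with the lane covariate and within L02.

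Leaving out each library moved F9 from −0.20 to 0.13, Fga from −0.24 to 0.18 and Fgg from −0.40 to 0.089 for DKO tumor against wild-type liver. Against DKO liver, the tumor difference moved from −0.058 to 0.24 for F9, from −0.57 to 0.054 for Fga, from −0.30 to 0.13 for Fgb and from −0.63 to 0.019 for Fgg. For DKO liver against wild-type liver it moved F2 from −0.059 to 0.12, F9 from −0.21 to 0.013, F10 from −0.068 to 0.14, Fga from −0.041 to 0.59 and Fgg from −0.15 to 0.49.

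The number of all genes passing for DKO tumor against wild-type liver was 216, and 611 with median-of-ratios scaling, 478 with quantile normalization, 112 without the filter, 3 with the lane covariate, 25 within L03 and 16 to 413 without 1 library. Tumor against DKO liver gave 1, and 24 with quantile normalization, 55 over the 8 libraries, 0 with the lane covariate and 1 to 363 without 1 library. DKO liver against wild-type liver gave 0, 1 with median-of-ratios scaling, 1 over the 8 libraries and 0 to 2 without 1 library. With the replicate block it was 229 for DKO tumor against wild-type liver, 71 for DKO tumor against DKO liver and 3 between the livers of both genotypes, and the block changed no call among the 10 genes. Wild-type libraries share only a number with the DKO libraries, so their pairing in the block is arbitrary, and only the block of DKO tumor and DKO liver joins samples of the same animals. The number of libraries (4 per group), the scaling and the lane tags limit these results, and the effect of depth was not tested.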
